A study of Mus musculus with 6 samples.

Results

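A set of 10 genes that are switched on by the ERK branch of MAP kinase signalling, and that in turn damp or carry out its output, were followed here by name. The members were the ERK phosphatase genes Dusp4, Dusp5 and Dusp6, the Sprouty genes Spry1, Spry2 and Spry4, the Spred genes Spred1 and Spred2, and the ETS transcription factor genes Etv4 and Etv5. They were chosen by symbol from the deposited table, where each of the 10 had 1 row among 78409 genes. All 10 passed the filter on low counts that left 14834 genes for testing, so no member was lost. The cells were nephrogenic stroma, the connective tissue of the nephron-forming outer zone of the fetal kidney, isolated by fluorescence sorting for PDGFRa. The kidneys were wild-type, of the CD1 mouse strain, taken at embryonic day 18 and pooled. They were cultured for 18 h in medium with fetal bovine serum on coverslips coated with PDMS, a silicone elastomer. The coating had been incubated in bovine fibronectin at 500 ng/mL (low adhesion, 3 libraries) or at 50000 ng/mL (high adhesion, 3 libraries), with 1 library of either kind from every one of 3 litters. No freshly sorted or uncoated sample is part of the comparison, and all cells shared the sort, the serum and the substrate material.

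ERK is the last kinase of a relay that runs from growth factor receptors and integrins through RAS, RAF and MEK. Active ERK turns on genes whose products act back on the relay. The DUSP phosphatases remove the activating phosphates from ERK, Sprouty and Spred proteins restrain RAS and RAF, and the PEA3 family factors ETV4 and ETV5 are transcriptional effectors. In the developing kidney this circuit is known above all from the ureteric bud, where Etv4 and Etv5 act below the receptor RET and Spry1 limits RET signalling. The transcripts are widely used as readouts of the pathway, but phosphorylated ERK itself was not analysed here.

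Library totals ran from 12596249 to 13508257 counts, so that 1 count stood for 0.074 to 0.0794 CPM, the count normalised to library size. Member counts ran from 142 to 6185.5 per library. The labelled cell type was matched by its markers in every library, with Col1a1 at 1333 to 1649 CPM, Col3a1 at 213 to 402 CPM and Foxd1 at 157 to 216 CPM. Pdgfra, the gene of the sorted receptor, lay at 16.9 to 33.6 CPM. The 12 ureteric markers spanned a wide range. Wnt9b was at 0 in 6 of 6 libraries, Ret lay between 0.222 and 0.988 CPM and Epcam between 5.58 and 8.06 CPM, whereas Gata3 at 32.1 to 50.7 CPM, Krt19 at 62.8 to 121 CPM and Krt18 at 200.0 to 735 CPM were well detected in every library. In bulk RNA, fewer cells of a type and less RNA per cell cannot be told apart. Values below are CPM on TMM-scaled library sizes. Unless another test is named, p-values are from edgeR's quasi-likelihood test with litter as a block, adjusted by Benjamini-Hochberg over all genes tested.

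The members went in both directions between the substrates. Dusp5, Dusp6 and Spry1 rose at high adhesion and Dusp4 and Spred2 fell, while Spry2, Spry4, Spred1, Etv4 and Etv5 did not pass an adjusted p of 0.05. Of 10 members 5 were called, beside 9.55% of all genes tested in either direction. The 3 higher ones stood against a background of 4.71% called higher, and the 2 lower ones against 4.83% called lower. These shares include genes of much lower level than the members. With only genes of at least 5 CPM on average, which keeps all members, 1426 of 10202 genes tested were called, the same 5 members among them. No change exceeded 1.27-fold in either direction. The median log2 fold change of the members, high minus low adhesion, was 0.12, beside -0.00119 over all genes tested. These calls rest on comparing libraries within litters. Without the replicate block edgeR called 0 members, with 2 at an unadjusted p under 0.05, and DESeq2 called 0 without and 2 (Dusp5 and Spred2) with the litter block.

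**Figure D1:**
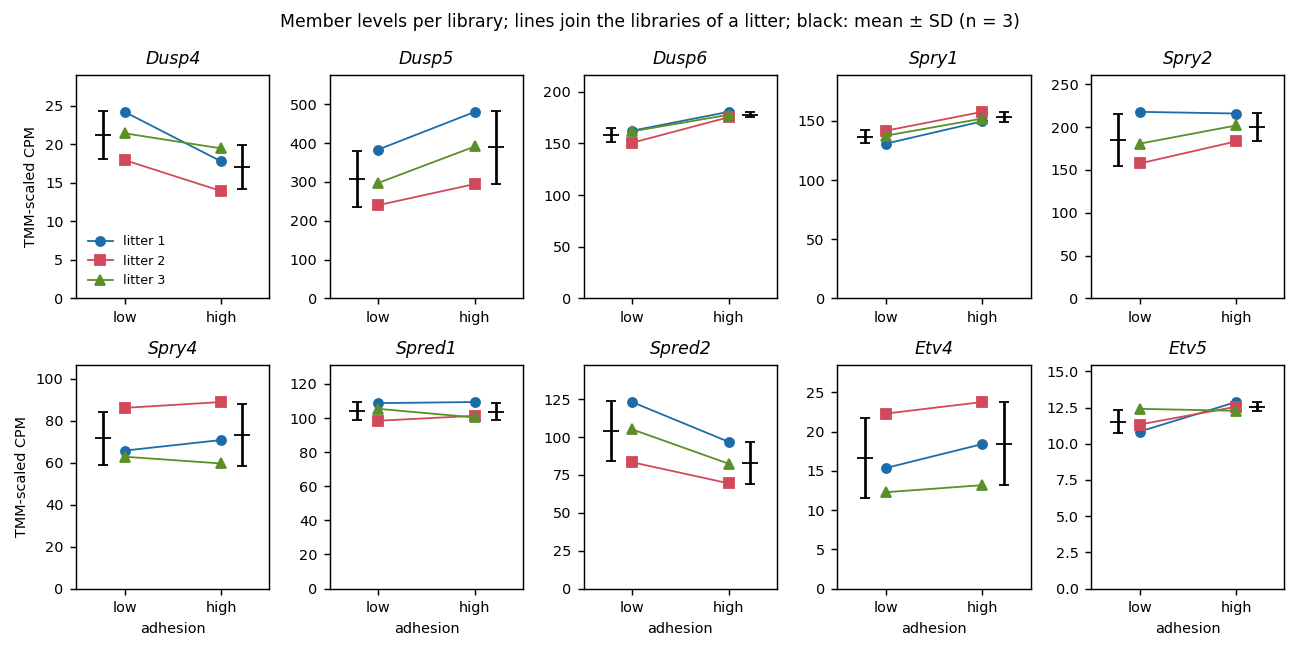
Level of each member (y axis, TMM-scaled CPM from 0) at low and high adhesion (x axis). Each line joins the libraries of 1 litter and the black bars give the mean ± SD of 3 libraries. The lines of Dusp5 slope up in 3 of 3 litters and those of Spred2 and Dusp4 slope down in 3 of 3, although the levels of different litters are far apart.

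Dusp5 (ENSMUSG00000034765), which encodes a nuclear phosphatase specific for ERK, rose furthest. It stood at 383, 240 and 297 CPM in litters 1, 2 and 3 at low adhesion and at 480, 294 and 391 CPM at high adhesion. Each litter was higher on the high adhesion substrate, yet the groups overlapped because the litters differed so much. The fitted log2 fold change was 0.34 ± 0.04 (standard error; edgeR adjusted p = 1.47e-06), or 1.27-fold, and the within-litter ratios were 1.25, 1.23 and 1.32. Dusp5 was called in 11 of 13 alternative settings, missing only in the edgeR and DESeq2 fits without the replicate block (adjusted p = 0.748 and 1.00).

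Dusp6 (ENSMUSG00000019960), the cytoplasmic ERK phosphatase and a common reporter of the pathway, made a smaller step. Its levels were 162, 151 and 162 CPM at low adhesion and 181, 175 and 178 CPM at high adhesion, in litters 1 to 3. All high values lay above all low values. A gap of this kind between the groups, in either direction, was present in 15.6% of all genes tested. Its log2 fold change was 0.17 ± 0.04 (edgeR adjusted p = 0.0107). It did not pass with DESeq2 and the litter block (adjusted p = 0.143) or without litter 3 (edgeR adjusted p = 0.0567). Nor did it pass without the replicate block, in edgeR (adjusted p = 0.345) or in DESeq2 (adjusted p = 0.601).

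Dusp4 (ENSMUSG00000031530), a nuclear phosphatase that acts on ERK and other MAP kinases, went the opposite way. It read 24.2, 17.9 and 21.4 CPM at low adhesion and 17.8, 13.9 and 19.5 CPM at high adhesion, in litters 1 to 3. Each litter was lower at high adhesion, and the groups overlapped. Dusp4 had a log2 fold change of -0.31 ± 0.08 (edgeR adjusted p = 0.0152). Litter 3 showed the smallest step, a log2 ratio of -0.14 against -0.45 and -0.37 in litters 1 and 2. The call was lost without litter 1 (log2 fold change -0.24, edgeR adjusted p = 0.192) and with DESeq2 and the litter block (adjusted p = 0.398). It was also lost without the replicate block, in edgeR (adjusted p = 0.576) and in DESeq2 (adjusted p = 0.986). Within a litter, the log2 ratio of Dusp5 exceeded that of Dusp4 by 0.77, 0.66 and 0.54 in litters 1, 2 and 3, a mean of 0.66 ± 0.12 (SD, n = 3 litters). No test of this difference between genes was run.

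Promoter windows from RefSeq (build GRCm38.p6, 250 bases before to 50 after a transcription start) were at hand for 7 of the 10 members, in 8 windows. They are shown for the 2 phosphatase genes that rose and for Spred2, which fell, so that the letters upstream of genes that changed in opposite directions can be compared. Each stretch runs 5′ to 3′ on the plus strand and ends before the first annotated start. Capitals mark matches to the SRF CArG box, the binding sequence of serum response factor, which partners ERK-activated ETS factors, and to AGGAAG, a PEA3-type ETS sequence, or its reverse complement CTTCCT. The stretches lie at chr19:53528895-53529108 for Dusp5, chr10:99262981-99263230 for Dusp6 and chr11:19924192-19924374 for Spred2.
Dusp5: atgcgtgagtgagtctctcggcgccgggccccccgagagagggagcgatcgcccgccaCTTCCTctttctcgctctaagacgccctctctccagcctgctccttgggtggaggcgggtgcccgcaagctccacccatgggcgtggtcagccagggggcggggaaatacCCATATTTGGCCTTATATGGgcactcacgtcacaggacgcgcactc
Dusp6: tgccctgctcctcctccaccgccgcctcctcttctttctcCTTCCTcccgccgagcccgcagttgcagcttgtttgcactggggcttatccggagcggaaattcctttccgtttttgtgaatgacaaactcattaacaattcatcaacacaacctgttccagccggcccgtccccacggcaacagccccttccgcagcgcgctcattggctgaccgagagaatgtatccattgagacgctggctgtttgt
Spred2: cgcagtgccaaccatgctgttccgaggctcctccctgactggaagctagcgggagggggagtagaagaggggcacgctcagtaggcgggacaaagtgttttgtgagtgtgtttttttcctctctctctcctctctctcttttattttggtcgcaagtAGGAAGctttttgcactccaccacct
The Dusp5 stretch held 2 CArG boxes side by side, beginning 82 and 72 bases before the RefSeq start. A CArG box was present in 1.63% of 32851 promoter windows of the same length, and at least 2 were present in 6 of them. No other member with a window had one. AGGAAG on either strand was found in windows of 4 of the 7 members, Dusp5, Dusp6, Spred2 and Etv5. Etv5 had windows 1 and 2 and matched only in window 2, after the RefSeq start. Over all windows the share with a match was 35.4%, counted per window and not per gene. AGGAAG was therefore present upstream of Spred2, which fell, as well as of Dusp5 and Dusp6, which rose. The window of Spry1, which also rose, held no match to any of the sequences searched. The letters CCGGAAG (8.86% of all windows), the AP-1 sequence TGANTCA (7.81%) and the cyclic AMP response sequence TGACGTCA (1.79%) were searched on both strands and had no match in the members' windows. These matches describe sequence only, and the motifs were chosen with the expression values known.

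Among the Sprouty genes, whose products inhibit signalling from receptor tyrosine kinases, Spry1 (ENSMUSG00000037211) rose. It measured 131, 142 and 138 CPM at low adhesion and 150, 158 and 152 CPM at high adhesion, in litters 1 to 3. The groups did not overlap, and the litters agreed closely. The log2 fold change was 0.16 ± 0.04 (edgeR adjusted p = 0.016). Spry1 did not pass without litter 1 (edgeR adjusted p = 0.126), without litter 3 (edgeR adjusted p = 0.099) or with DESeq2 and the litter block (adjusted p = 0.199). Nor did it pass without the replicate block, in edgeR (adjusted p = 0.379) or in DESeq2 (adjusted p = 0.718).

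Spry2 (ENSMUSG00000022114), the Sprouty gene with the highest level per length, missed the threshold. It was 218, 158 and 181 CPM at low adhesion and 216, 183 and 202 CPM at high adhesion, in litters 1 to 3. Litters 2 and 3 were higher at high adhesion and litter 1 was level, with within-litter ratios of 1.16, 1.12 and 0.991. The log2 fold change was 0.12 with a 95% interval of 0.03 to 0.21 (edgeR adjusted p = 0.109), and without litter 1 it was 0.19 and passed (edgeR adjusted p = 0.0286).

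Spry4 (ENSMUSG00000024427) read 65.7, 86.0 and 62.8 CPM at low adhesion and 70.7, 88.8 and 59.6 CPM at high adhesion, in litters 1 to 3. The litters did not share a direction. Its log2 fold change was 0.03, with a 95% interval of -0.09 to 0.14 (edgeR adjusted p = 0.844). Within litters, the log2 ratio of Spry1 exceeded that of Spry4 by 0.14 ± 0.07 on average (SD, n = 3 litters), and that difference was not tested.

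The Spred genes encode membrane-bound inhibitors of the RAS to RAF step, and SPRED1 is known to bring the RAS inactivator neurofibromin to the membrane. Spred2 (ENSMUSG00000045671) went from 123, 83.4 and 105 CPM at low adhesion to 96.9, 69.5 and 82.4 CPM at high adhesion, in litters 1 to 3. All 3 litters were lower at high adhesion, with ratios of 0.787, 0.833 and 0.784, and the groups overlapped. Spred2 had a log2 fold change of -0.32 ± 0.05 (edgeR adjusted p = 5.68e-05). As for Dusp5, 11 of 13 alternative settings called it, and the exceptions were the edgeR and DESeq2 fits without the replicate block (adjusted p = 0.633 and 0.697).

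Its paralog Spred1 (ENSMUSG00000027351) did not pass. It measured 109, 98.4 and 105 CPM at low adhesion and 109, 101 and 100 CPM at high adhesion, in litters 1 to 3. The levels lay within one narrow band. The log2 fold change was -0.01, with a 95% interval of -0.11 to 0.09 (edgeR adjusted p = 0.956). The log2 ratio of Spred1 exceeded that of Spred2 by 0.36, 0.31 and 0.28 in the 3 litters.

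**Figure D2:**
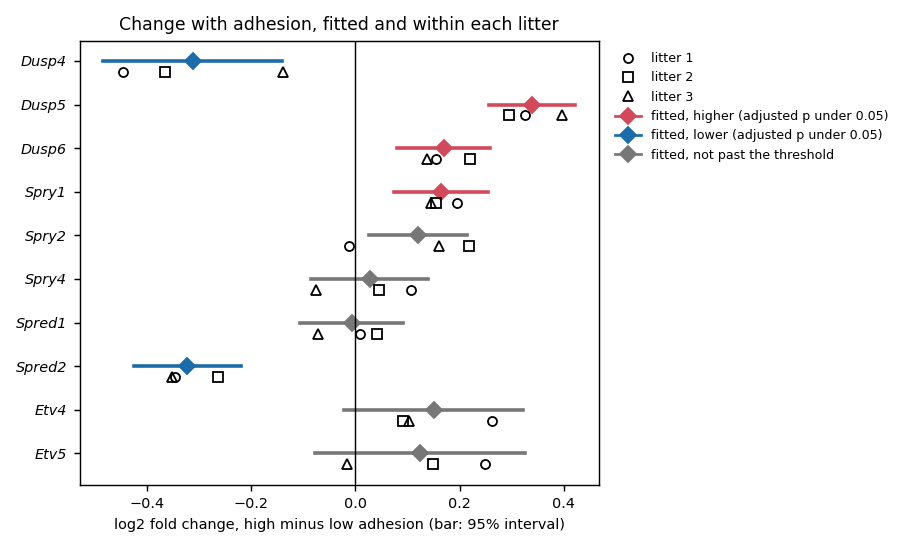
Log2 fold change of each member, high minus low adhesion (x axis). Diamonds with bars are the fitted values with 95% intervals, and open symbols are the ratios within each litter. Dusp5, Dusp6 and Spry1 lie to the right of 0, Dusp4 and Spred2 lie to the left, and the bar of Spry2 clears 0 although its adjusted p does not pass.

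The output factors Etv4 (ENSMUSG00000017724) and Etv5 (ENSMUSG00000013089) were the least abundant members per length. Etv4 was 15.3, 22.3 and 12.3 CPM at low adhesion and 18.4, 23.8 and 13.2 CPM at high adhesion, in litters 1 to 3. Every litter was higher at high adhesion, by small steps set against large differences between litters. The log2 fold change was 0.15, with a 95% interval of -0.02 to 0.32 (edgeR adjusted p = 0.314). Etv5 was 10.8, 11.3 and 12.4 CPM at low adhesion and 12.9, 12.6 and 12.3 CPM at high adhesion. Litters 1 and 2 were higher and litter 3 was level, with a log2 fold change of 0.12 and a 95% interval of -0.08 to 0.33 (edgeR adjusted p = 0.521). Etv1, the remaining gene of the PEA3 family and no member here, fell from 3.95 ± 1.63 to 2.19 ± 0.843 CPM (adjusted p = 0.00345 in edgeR; SD, n = 3 each), and it was singled out after its values were seen.

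Levels were compared between members only per kilobase of annotated exon. Dusp5 was highest at 141 ± 35.1 CPM per kb (SD, n = 6 libraries), followed by Spry2 at 92.5 ± 11.2, Dusp6 at 53.7 ± 3.73 and Spry1 at 49.9 ± 3.45 CPM per kb. Next came Spred2 at 20.2 ± 4.14, Spred1 at 15.3 ± 0.677 and Spry4 at 15.2 ± 2.59 CPM per kb. Dusp4 at 6.98 ± 1.28, Etv4 at 5.65 ± 1.54 and Etv5 at 2.94 ± 0.193 CPM per kb closed the order. The ranges over 6 libraries overlapped between Dusp5 and Spry2, between Dusp6 and Spry1, along the chain of Spred2, Spred1 and Spry4, and between Dusp4 and Etv4. The other neighbours in the order were separated. The mean of Dusp5 was 47.9 times that of Etv5. The members that rose with adhesion, Dusp5, Dusp6 and Spry1, ranked 1, 3 and 4 in this order. Spred2 and Dusp4, which fell, ranked 5 and 8, and Spry2, at rank 2, was not called. A relation between level and change was not tested.

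Levels of the members also differed between litters. In the test of litter within the same fit, 6 of 10 members differed between litters, against a background of 17.9% of all genes tested. Etv4 varied most, with the mean of litter 2 1.81 times that of litter 3 (edgeR adjusted p = 2.23e-06). Dusp5 had litter means of 432, 267 and 344 CPM (edgeR adjusted p = 2.17e-10). Litter 2 was the highest for Etv4 and the lowest for Dusp5.

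Dusp4, Dusp5, Spry2 and Spred2 were highest in litter 1 and lowest in litter 2. Spry4 and Etv4 were highest in litter 2 and lowest in litter 3. The spread between the highest and the lowest litter mean was 1.32-fold for Dusp4, 1.27-fold for Spry2, 1.43-fold for Spry4 and 1.44-fold for Spred2 (edgeR adjusted p = 0.0114, 0.000167, 4.62e-06 and 1.59e-06). Dusp6, Spry1, Spred1 and Etv5 did not pass the litter test, and their litter means lay within 1.09-fold. Thus Dusp6 and Spry1, which changed with adhesion, were not called between litters, whereas Dusp5, Dusp4 and Spred2 were called in both tests.

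**Figure D3:**
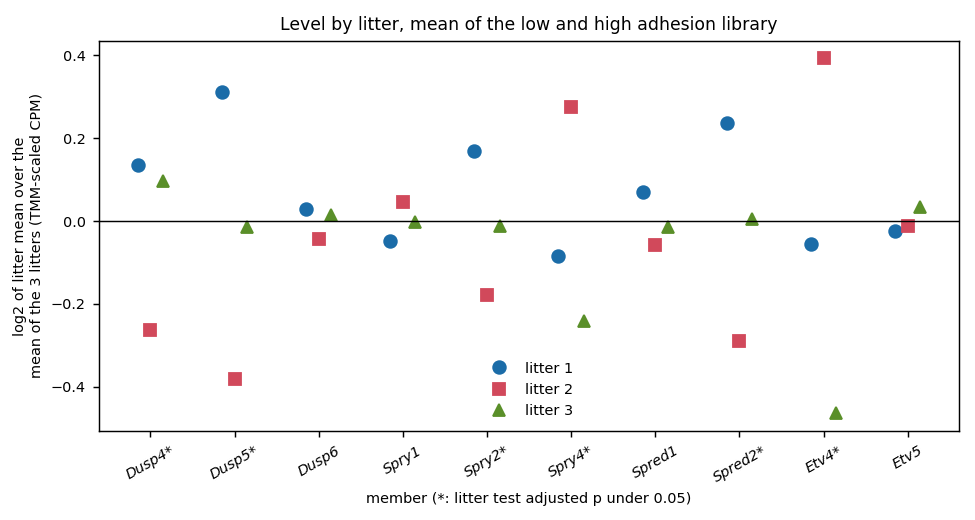
Level of each member in each litter, as the log2 of the litter's mean CPM over the mean of the 3 litters (y axis), with members on the x axis and asterisks on those past the litter test. Among the members with an asterisk, litter 2 (squares) lies lowest for Dusp4, Dusp5, Spry2 and Spred2 and highest for Spry4 and Etv4. Of the others it lies lowest for Dusp6 and Spred1 and highest for Spry1.

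Markers of other cell types also varied between these libraries. The summed level of 12 ureteric markers was 646, 349 and 456 CPM at low adhesion and 933, 514 and 768 CPM at high adhesion in litters 1 to 3. It was highest in litter 1 and lowest in litter 2. Dusp4, Dusp5, Dusp6, Spry2, Spred1 and Spred2 had the same litter order, as did the summed nephron progenitor markers at low and at high adhesion. Dusp6 and Spred1 did not pass the litter test, and the share of all genes with this order was not counted. Of these members Dusp5 and Dusp6 rose at high adhesion, Dusp4 and Spred2 fell, and Spry2 and Spred1 did not pass. Most of the ureteric sum came from Krt18 (335 ± 148 and 546 ± 200 CPM at low and high adhesion; SD, n = 3 each) and Krt19 (69.5 ± 5.71 and 114 ± 5.61 CPM). Calls of markers in this paragraph are to be read beside 4.71% called higher and 4.83% called lower over all genes tested. Of the 10 ureteric markers tested, 3 rose (Krt8 is the third) and 1, Gata3, fell. The 7 nephron progenitor markers summed to 65.6 to 83.6 CPM at low and 72.6 to 90.0 CPM at high adhesion, with Gdnf at 18.3 ± 0.605 and 19.6 ± 0.637 CPM and Cited1 the 1 member that rose (18.4 ± 5.53 to 22.4 ± 5.84 CPM). The 6 endothelial markers summed to 66.3 to 87.1 CPM and 68.8 to 98.8 CPM, with Flt1 1.47-fold higher and Emcn 1.26-fold lower at high adhesion. Pecam1 and Cdh5 averaged only 1.30 and 1.06 CPM over all libraries, and Tie1, at 0.355 CPM before TMM scaling, was not tested. The 6 leukocyte markers summed to 22.7 to 44.1 CPM and 22.8 to 51.2 CPM, with Lyz2 the 1 that rose (15.1 to 19.6 CPM) and Cd68 at 4.85 and 3.84 CPM, and none of these 12 markers was at 0 in all libraries. The 10 stromal markers summed to 2680 to 2940 CPM at low and 2230 to 2390 CPM at high adhesion, and 9 of them fell, among them Meis2 (208 to 157 CPM) and Col3a1 (325 to 255 CPM). The part of any of these shifts in the members' values was not tested.

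The rest of the pathway gave a background for the members. Of 93 other ligands, receptors, relay components, inhibitors and target genes, 91 were tested, of which 15 rose and 12 fell, and the median log2 fold change was 0.02. The counts by role that follow are to be read against 4.71% called higher and 4.83% called lower over all genes tested. Without litter 3 the rises numbered 9. In edgeR without the replicate block 1 rose and 2 fell.

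Among ligands 1 of 18 rose and 4 fell. The fibroblast growth factor genes Fgf7 and Fgf2 fell 1.59-fold and 1.58-fold, Pdgfb fell 1.22-fold and Hbegf, an EGF receptor ligand, fell 1.10-fold, while Pdgfc rose 1.21-fold (edgeR adjusted p from 2.13e-06 for Fgf7 to 0.0412 for Pdgfc). Among 11 receptor genes tested Egfr rose, from 164 ± 8.72 to 190 ± 9.37 CPM, and Kit, Pdgfra and Pdgfrb fell 1.96-fold, 1.46-fold and 1.47-fold (SD, n = 3 each; edgeR adjusted p from 2.96e-06 for Kit to 0.00468 for Egfr). The FGF receptor gene Fgfr1 measured 110 and 104 CPM and did not pass (edgeR adjusted p = 0.263).

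Within the relay, calls were about as frequent as the 9.55% over all genes tested. Of 13 adaptor and RAS genes, Mras, a RAS relative, was the 1 that passed, with a 1.21-fold rise (edgeR adjusted p = 0.0334). Of 16 genes for RAF, MEK, ERK, their scaffolds and downstream kinases none rose and 2 fell. These were the scaffold gene Iqgap1, with 337 ± 10.3 and 241 ± 17.5 CPM on the low and high adhesion substrates, and Mapk3, the ERK1 gene, at 37.0 ± 3.74 and 28.6 ± 2.16 CPM (adjusted p = 1.14e-07 and 0.000402 in edgeR; SD, n = 3 each).

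The other MAP kinase phosphatase genes went upwards where they passed. Of 8 tested, 5 rose and none fell, with a median log2 fold change of 0.21. Dusp1, an immediate early phosphatase gene, went from 435 ± 20.3 to 603 ± 27.3 CPM and Dusp14 from 36.4 ± 4.46 to 48.0 ± 4.93 CPM (adjusted p = 4.90e-09 and 6.76e-05 in edgeR; SD, n = 3 each). Dusp8, Dusp9 and Dusp10, the first and last of which act mainly on the stress kinases, rose 1.18-fold, 1.16-fold and 1.16-fold (edgeR adjusted p = 0.0142, 0.0177 and 0.0389). Dusp4 was thus the 1 phosphatase gene of the 11 in both lists that fell.

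The other inhibitors at receptor and RAS level were called about as often as all genes tested (4.71% higher, 4.83% lower). Of 10 tested, none rose, Cblb, a ubiquitin ligase gene, fell 1.43-fold (edgeR adjusted p = 1.30e-05) and the other 9 did not pass, with a list median of -0.10 on the log2 scale. Of 15 further ERK-responsive genes 7 rose and 2 fell. Epha4 rose 1.52-fold, Fosl1, an AP-1 subunit, 1.35-fold, Plaur, the urokinase receptor, 1.25-fold and Epha2 1.20-fold (edgeR adjusted p = 4.19e-05, 5.14e-07, 6.38e-06 and 0.000102). The 2 that fell were Etv1 and Ier3, the latter 1.14-fold (edgeR adjusted p = 0.0023). The immediate early gene Egr1 was 118 and 109 CPM and did not pass (edgeR adjusted p = 0.187).

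**Figure D4:**
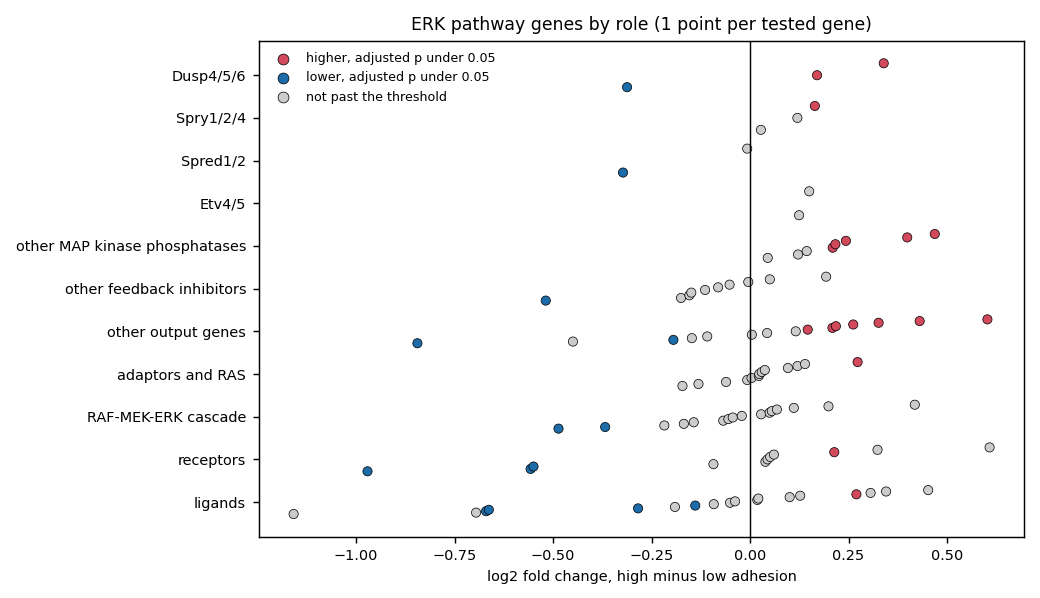
Log2 fold change, high minus low adhesion (x axis), of each tested member and pathway gene, arranged by role (y axis), with 1 point per gene coloured by the edgeR call. The other phosphatase and output genes hold 5 and 7 of the red points, and receptors and ligands hold 3 and 4 of the blue ones.

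The genes whose pattern over the 6 libraries was closest to that of Dusp6 were sought among 10206 others of at least 5 CPM, by the root mean square difference of centred log2 CPM. Ptdss1 (0.018), Ambra1 (0.020), Numbl (0.024), 2410004B18Rik (0.024) and Ino80e (0.024) came first. Of these Numbl passed the adhesion test (edgeR adjusted p = 0.012). No member was among them. Etv5 was the nearest member at rank 533 (0.068), followed by Spry1 at rank 739 (0.074), and Etv4 was the farthest at rank 9807 (0.38).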

How the data were processed

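A commercial service made 6 libraries of polyadenylated RNA from litter-matched cultures by tagmentation, per the labels. The submitters' processing notes name fastp 0.24.0, STAR 2.7.11, featureCounts of Subread 2.1.1 and build GRCm39. Annotation release, strand setting and the handling of shared reads were not given in the sources used here. Values deposited by the authors are estimated counts, some fractional, and CPM, which equal these counts scaled by the library total to within 5.1e-11. Of the members 7 held a fractional value in at least 1 library, so reads shared with other genes can touch them.

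Counts were rounded, filtered with filterByExpr, scaled by TMM (factors 0.9884 to 1.011) and fitted with edgeR 4.0.16 (R 4.3.3) as a robust quasi-likelihood model of litter and adhesion, with Benjamini-Hochberg adjustment over 14834 genes and a two-sided threshold of 0.05. Standard errors are the fold change over the root of F. With the litter block the biological coefficient of variation came to 4.06%, and to 10.7% without it. The series' design text states the litter matching, and deviations from group means correlated across genes at 0.63, 0.64 and 0.42 within litters 1, 2 and 3. Exon lengths come from GENCODE M21 (build GRCm38), matched by gene identifier, so lengths per kb are approximate for the authors' build and no GRCm39 coordinates are printed. DESeq2 1.42.0 and limma 3.58.1 served as alternatives. The code was tested on simulated data with the litter block. There it recovered 36% of 50 genes changed 1.15-fold and 62% of 50 genes changed 1.25-fold. Of all calls made there, 8.7% fell on genes left unchanged.

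Members and lists were chosen with earlier results of these data known. Named genes were all members, up to 4 called genes of lowest adjusted p per pathway list (or the most abundant where none was called), up to 2 called and 2 most abundant genes per marker list, and the 5 genes most like Dusp6. Dusp10, Pdgfc, Etv1, Ier3, Egr1, Fgfr1 and Foxd1 were named outside this rule, after their values were seen. So were Ret, Epcam, Wnt9b, Gata3, Krt8, Pecam1, Cdh5 and Tie1. One gene of the lists is not reported here.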

Additional observations from a re-analysis of the deposited data

How the results depend on the processing

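Members kept their direction in all alternatives except Spry4 and Spred1, which were not called in any. In place of 3 higher and 2 lower members, edgeR with no replicate block gave 0 and 0 (2 members at an unadjusted p under 0.05), DESeq2 with the block 1 and 1, and DESeq2 with no replicate block 0 and 0 (3 at an unadjusted p under 0.05). Leaving out 1 litter at a time gave 1 to 3 higher and 1 to 2 lower members, lowest for the rises without litter 3 and for the falls without litter 1, and 4 to 6 members that differed between litters. limma-voom, 3 other scalings, 2 other filters and unrounded counts each gave 3 higher and 2 lower. Over all genes 1416 were called, 36 with no replicate block, 406 and 122 in DESeq2 with and without it, and 908 without litter 3. The other pathway genes, 15 higher and 12 lower, became 1 and 2 with no replicate block, 8 and 9 in DESeq2 with it, 1 and 4 in DESeq2 without it, and 9 and 11 without litter 3. The causes were not tested. The deposited CPM differed from the TMM-scaled CPM by less than 1 SD for each member's mean at low adhesion. Standard errors on the log2 scale ran from 0.04 for Dusp5 to 0.10 for Etv5, which held the lowest member count, 142, and the part of depth in them was not tested.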
